A study of Mus musculus with 12 samples.

Results

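Txnip, the 4 other alpha-arrestin genes Arrdc1, Arrdc2, Arrdc3 and Arrdc4, the transcription factor gene Mlxip and the thioredoxin gene Txn1 were described in mouse bone marrow-derived macrophages (BMDMs) given immune complexes and a BET inhibitor. These 7 genes of the 24421 symbols in the count table were taken by symbol. Txnip was chosen by its lower level with immune complex under the inhibitor, so that difference is given as a description with no test. The others were chosen by membership of its family or pathway. All 7 had enough counts to be among the 11468 genes tested.

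The BMDMs came from C57BL/6 mice with no labelled genetic change, and all were cultured for 5 days with M-CSF at 100 ng/mL, with the medium renewed on day 3. The 4 groups received DMSO solvent with ovalbumin (DMSO Ova), DMSO with IgG-opsonised ovalbumin immune complexes (DMSO IC), I-BET151 at 5.0 µM with ovalbumin (iBET Ova) or the same inhibitor with immune complexes (iBET IC), and stimulation lasted 4 hours. The DMSO groups were labelled with DMSO at 5%, and the iBET groups had no labelled share of DMSO. Whether the arms differed in solvent is not known. I-BET151 blocks the bromodomains with which BET proteins bind acetylated chromatin. The labels have drug and stimulus added together whereas the methods put the drug first, so the length of exposure to iBET is uncertain by that difference. Every group held 1 library from each of mice A, B and C, 12 libraries in all. The ages and sexes of the mice were not used.

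Alpha-arrestins are adaptors that link membrane proteins to ubiquitin ligases of the NEDD4 family through PPxY motifs, and so direct the internalisation and sorting of carriers and receptors. Txnip (thioredoxin-interacting protein) also binds reduced thioredoxin, restrains glucose uptake through the carriers Glut1 and Glut4, and has been linked to the NLRP3 inflammasome. Its gene, like that of Arrdc4, is a well known target of the glucose-sensing factor MondoA, which Mlxip encodes and which binds carbohydrate response elements together with Mlx. Txnip messenger RNA is short-lived and responds quickly to nutrients.

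The sequences before the gene starts are shown because they carry the motifs by which this family is known to be regulated. Windows of 250 bases before the RefSeq start (GRCm38.p6) were found for 7 of 7 genes. Those of Txnip (chr3:96557707-96557956, plus strand), its fellow MondoA target Arrdc4 (chr7:68749239-68749488, minus strand) and Arrdc2 (chr8:70839721-70839970, minus strand), the other alpha-arrestin higher with iBET, are printed 5′ to 3′ with the gene. Capitals mark matches, on either strand, to the E-box, FoxO, CCAAT, TATA and CACGAG motifs spelled out in the next paragraph.
Txnip: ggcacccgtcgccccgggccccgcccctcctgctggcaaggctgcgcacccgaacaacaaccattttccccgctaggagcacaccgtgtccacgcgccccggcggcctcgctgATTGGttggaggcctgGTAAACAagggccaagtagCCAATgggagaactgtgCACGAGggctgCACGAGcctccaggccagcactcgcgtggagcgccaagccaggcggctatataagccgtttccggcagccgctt
Arrdc4: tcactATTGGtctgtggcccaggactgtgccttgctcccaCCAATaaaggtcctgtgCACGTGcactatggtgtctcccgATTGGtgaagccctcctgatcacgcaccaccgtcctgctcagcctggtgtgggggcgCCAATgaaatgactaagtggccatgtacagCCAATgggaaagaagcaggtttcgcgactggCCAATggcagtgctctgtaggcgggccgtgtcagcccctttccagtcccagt
Arrdc2: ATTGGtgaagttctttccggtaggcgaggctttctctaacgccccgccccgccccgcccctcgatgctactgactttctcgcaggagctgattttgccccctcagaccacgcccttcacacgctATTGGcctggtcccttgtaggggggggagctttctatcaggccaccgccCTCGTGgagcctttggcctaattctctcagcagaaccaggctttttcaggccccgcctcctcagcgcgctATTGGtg

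The window of Txnip held 1 FoxO site (TGTTTAC, read on the minus strand), which began 121 bases before the start and is found in 3.17% of 32851 RefSeq promoter windows of the same length. It held 2 CCAAT boxes, at 137 and 102 bases, a motif present in 33.8% of windows. The element CACGAG was present in 2 copies, which began 85 and 74 bases before the start, with 5 bases between them. The element occurs in 5.37% of windows, and the spaced pair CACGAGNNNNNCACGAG, a motif searched for only after this sequence had been seen and overlapping the single element by construction, in 0.00304%, which is the Txnip window alone. The window of Arrdc4 held an E-box (CACGTG, in 6.02% of windows) at 193 bases and 6 CCAAT boxes. The window of Arrdc2 held 3 CCAAT boxes and 1 CACGAG element. The letter pattern used for the carbohydrate response element, 2 E-box-like elements 5 bases apart, matched 0.0974% of windows and none of the 7 genes. The CACGAG pair of Txnip has the same spacing but departs from that pattern in its second element. The lack of a match therefore does not show that Txnip has no such response element. TATAAA (12.4% of windows) matched only Txn1. Only these exact letters were searched, and the Txnip window holds the similar letters tatataag shortly before the start. The lack of a match therefore does not show that Txnip has no TATA box. Arrdc1 had 2 CACGAG elements, Mlxip 2 CCAAT boxes and Arrdc3, in the most upstream of its 3 windows, 1 CCAAT box. A match describes letters, not binding.

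**Figure D1:**
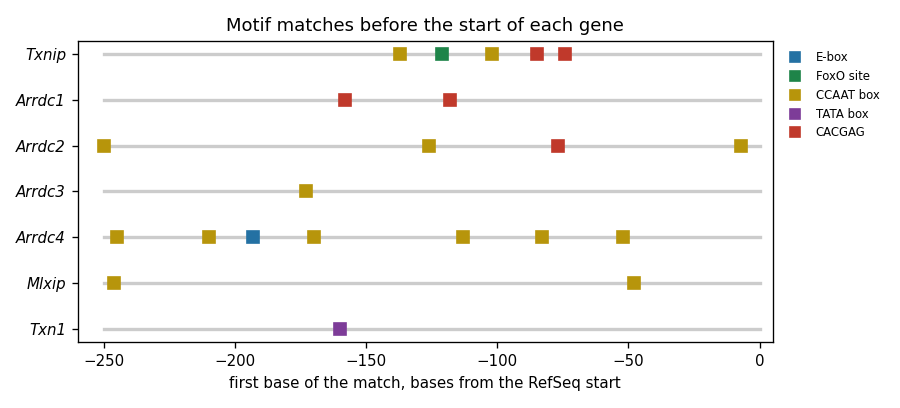
Motif matches in the 250 bases before the RefSeq start of each of the 7 genes. The x axis is the distance in bases from the start to the first base of the match, squares are matches on either strand, and colours give the motif. Txnip has 2 CACGAG elements, at 85 and 74 bases, and Arrdc4 has 6 CCAAT boxes around 1 E-box.

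Total counts were 7.55 M to 17.4 M per library. The ribosomal precursor transcript Rn45s took 77.4% of the counts of mouse A's DMSO Ova library, which left 1.77 M on other genes, against 1.41% to 7.83% in the other libraries, and each result was also fitted without that library. Macrophage markers (8 of 8 detected) summed to 6248 to 8511 CPM (read counts brought to one library size) per library. The sum was higher with iBET, without overlap in IC cells (6248 to 7180 in DMSO, 7818 to 8503 in iBET) and with overlap in Ova cells (6596 to 7627 and 7212 to 8511). Dendritic cell markers summed to 0.230 to 0.580 CPM in DMSO Ova, 0.677 to 1.21 in iBET Ova, 0.667 to 1.18 in DMSO IC and 1.20 to 1.49 in iBET IC. They were higher with iBET without overlap, narrowly in IC cells, and in DMSO also higher with IC without overlap. These sums rest on few reads, since 3 counts are 1.54 CPM in mouse A's DMSO Ova library and up to 0.360 CPM in the others. Only 1 of the 5 genes had enough counts to be tested. Those of lymphocytes summed to at most 0.194 (Nkg7 among those at 0), of fibroblasts to at most 1.54 and of erythroid cells to at most 0.338 (Hba-a1 and Hbb-bs among those at 0). Markers of granulocytes and their precursors (4 in the table) reached 33.5 CPM, and their summed range overlapped across the 4 groups. The part of any of these cells in the results was not tested. In bulk RNA, fewer cells that express a gene and less RNA per cell cannot be told apart.

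Txnip was the most abundant alpha-arrestin transcript. Per kilobase of exon its mean over the libraries was above that of 98.1% of the 11013 tested genes with a known length, and Txn1 was above 96.8%, whereas Mlxip (54.2%), Arrdc1 (45.5%), Arrdc3 (44.1%), Arrdc4 (43.0%) and Arrdc2 (25.4%) lay near or below the middle. In DMSO Ova cells Txnip stood at 132 ± 16.7 CPM per kb and Txn1 at 103 ± 5.67 (mean ± SD, n = 3). Arrdc3 (6.09 ± 0.584), Arrdc4 (5.12 ± 0.513), Arrdc1 (5.02 ± 0.281) and Mlxip (4.89 ± 0.446) followed. The last 3 of these were within their spread of each other, and Arrdc2 was lowest at 1.43 ± 0.456 CPM per kb. The remaining family member, Arrdc5, had 0 counts in every library, which allows a level of up to 0.360 CPM (3 counts) in 11 libraries and up to 1.54 CPM in mouse A's DMSO Ova library, counting error only.

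The level of Txnip separated the 4 groups. In DMSO Ova cells it was 351, 437 and 445 CPM in mice A, B and C, and in DMSO IC cells it was 188, 246 and 228 CPM. In iBET Ova cells it was 1188, 1106 and 1012 CPM, and in iBET IC cells 540, 531 and 582 CPM. No pair of groups overlapped, and the order from the top was iBET Ova, iBET IC, DMSO Ova and DMSO IC, so that cells with both agents held more Txnip than cells with neither. The lowest iBET IC library (531 CPM) and the highest DMSO Ova library (445 CPM) were the closest between groups next to each other in that order, a comparison that mixes both agents and was not tested.

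**Figure D2:**
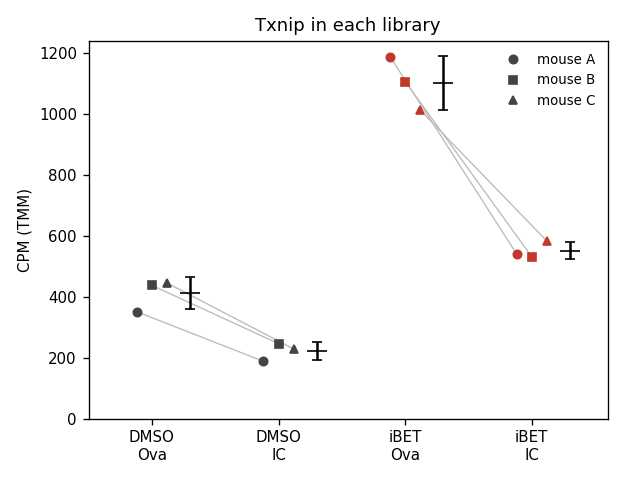
Txnip in each library, in TMM-normalised CPM, by group. Symbols are mice A, B and C, grey lines join libraries of 1 mouse within a drug arm, and bars give the mean and SD of 3 libraries. All 3 iBET Ova libraries are at 1012 CPM or more and all 3 DMSO IC libraries at 246 CPM or less.

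Without the inhibitor, IC was set against Ova to find transcripts that respond to crosslinking of Fc gamma receptors. Txnip fell with IC from 411 ± 52.3 to 221 ± 29.7 CPM (n = 3), a log2 fold change of -0.90 (SE 0.13, edgeR quasi-likelihood test with Benjamini-Hochberg adjustment, adjusted p 0.00464), and was lower in 3 of 3 mice, with log2 differences of -0.90, -0.83 and -0.96. It was the 1 member called of 7, beside 1.22% of all genes tested (0.732% higher and 0.488% lower). The call held in all 12 fits without 1 library. It was lost without all libraries of mouse B (adjusted p 0.400) or mouse C (adjusted p 0.152) and in a fit of only the 6 DMSO libraries (adjusted p 0.122), while the log2 fold change stayed between -1.02 and -0.79.

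Arrdc3, an alpha-arrestin known for control of adrenergic receptor signalling and body mass, stood at 42.1, 34.9 and 37.6 CPM in DMSO Ova and at 26.7, 23.0 and 24.3 CPM in DMSO IC, without overlap. Its log2 fold change was -0.62 (SE 0.15), with an adjusted p of 0.0861 in the edgeR fit. It was called with mouse as a block (0.0349), by DESeq2 (0.0248), with 1 surrogate variable (0.0180) and without mouse C's iBET Ova library (0.0379). The call under the block was lost without mouse A's DMSO Ova library, the one rich in Rn45s (adjusted p 0.0691). Arrdc4, which like Txnip acts on glucose carriers, had a log2 fold change of -0.30 (95% interval -0.61 to 0.00, adjusted p 0.432), and mouse A changed by only -0.02. Arrdc1, which helps release vesicles at the plasma membrane with Tsg101, was at 12.6 ± 0.704 and 8.62 ± 2.01 CPM (log2 fold change -0.57, adjusted p 0.277), with no overlap between the 2 groups. Arrdc2, the scarcest of the 7 with 8 to 165 counts per library, overlapped between groups (-0.31, adjusted p 0.763) and was lower only in mouse B. Mlxip (0.17, adjusted p 0.621) and Txn1 (-0.03, 95% interval -0.25 to 0.19, adjusted p 0.979) also overlapped.

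With iBET present the same stimulus was set against Ova, the comparison from which Txnip was picked. Txnip stood at 1102 ± 88.3 CPM with Ova and at 551 ± 27.3 CPM with IC, a log2 fold change of -1.0, and the differences per mouse were -1.14, -1.06 and -0.80. Of all genes tested 0.349% were called here (0.314% higher and 0.0349% lower). Of the other 6 members 0 were called by edgeR without mouse as a block, 2 had an unadjusted p under 0.05 in that fit, and 2 were called by DESeq2. Over all genes DESeq2 called 103, against 40 by edgeR. The log2 fold change of Txnip ranged from -1.10 to -0.90 over the fits that left out a library or a mouse.

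In iBET, Arrdc3 and Arrdc4 were both lower with IC in 3 of 3 mice, and neither was called in the edgeR fit without the block. Arrdc4 was 20.2, 21.6 and 19.4 CPM with Ova and 12.1, 15.0 and 12.3 CPM with IC, without overlap (log2 fold change -0.63, SE 0.14, adjusted p 0.112). Arrdc3 was 37.3, 36.0 and 25.2 CPM with Ova and 19.3, 22.1 and 18.5 CPM with IC, also without overlap (-0.72, SE 0.15, adjusted p 0.0935). With mouse as a block both were called, Arrdc4 at an adjusted p of 0.0379 and Arrdc3 at 0.0362, and DESeq2 (0.0204 and 0.00771) and 1 surrogate variable (0.0364 and 0.0190) called both without the block. The calls under the block held without mouse A's DMSO Ova library (0.0318 and 0.0335). The iBET Ova library of mouse C is the low one for Arrdc3, and without it the log2 fold change was -0.88 (adjusted p 0.0200). Arrdc1 (-0.32, adjusted p 0.792), Arrdc2 (-0.45, adjusted p 0.709), Txn1 (0.16, adjusted p 0.789) and Mlxip (0.02, adjusted p 0.996) did not pass the test.

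**Figure D3:**
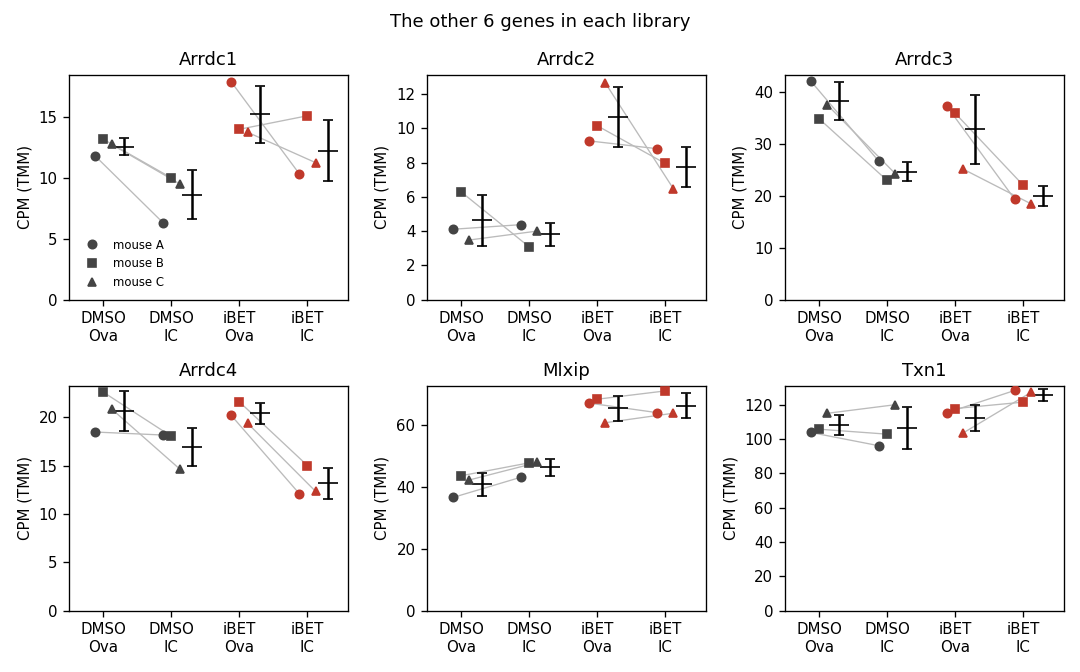
The other 6 genes in each library, in TMM-normalised CPM, each panel with its own axis from 0. Symbols are mice, grey lines join libraries of 1 mouse within a drug arm, and bars give the mean and SD of 3 libraries. Mlxip is at 60.6 CPM or more in every iBET library and at 47.8 or less in every DMSO library, and Arrdc4 has its lowest mean in iBET IC cells.

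The effect of the inhibitor was compared within each stimulus. In Ova cells 3 of the 7 rose with iBET, beside 31.3% of all genes tested (17.1% higher and 14.2% lower), and in IC cells the same 3 of 7 rose, beside 34.8% (19% higher and 15.8% lower). They were Txnip, Arrdc2 and Mlxip. The iBET libraries of both comparisons had entered the choice of Txnip, and each comparison shares a group of libraries with each of the IC comparisons above.

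Txnip was higher with iBET by a log2 fold change of 1.42 in Ova cells (SE 0.13, adjusted p 8.13e-06), in 3 of 3 mice (1.76, 1.34 and 1.18), and by 1.32 in IC cells (SE 0.13, adjusted p 1.13e-05; 1.52, 1.11 and 1.35). Both calls held in each of the 15 fits without a library or a mouse, but these fits reuse iBET libraries that entered the choice of Txnip. Without mouse A's DMSO Ova library, the lowest of its group, the difference in Ova cells was still called.

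Mlxip, the gene of MondoA, rose from 36.5, 43.5 and 42.1 CPM in DMSO Ova to 66.9, 68.2 and 60.6 CPM in iBET Ova (log2 fold change 0.67, SE 0.10, adjusted p 0.000385). In IC cells it rose from 43.0, 47.6 and 47.8 to 63.8, 70.8 and 63.6 CPM (0.52, SE 0.10, adjusted p 0.00155). The groups did not overlap in either comparison, and the call in IC cells was lost without mouse B (adjusted p 0.0594).

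Arrdc2, whose product takes part in receptor internalisation, rose from 4.11, 6.29 and 3.48 to 9.26, 10.1 and 12.6 CPM in Ova cells (log2 fold change 1.16, SE 0.25, adjusted p 0.00369). In IC cells it rose from 4.38, 3.08 and 4.00 to 8.81, 7.95 and 6.47 CPM (1.02, SE 0.24, adjusted p 0.00608). No group overlapped the one it was compared with. The call in Ova cells was lost without mouse C (log2 fold change 0.77, adjusted p 0.0872), and the call in IC cells without mouse B (0.88, adjusted p 0.0696). Mouse A's DMSO Ova library held only 8 counts of Arrdc2.

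The remaining 4 were not called with iBET, and not all leaned the same way. Arrdc4 differed by a log2 fold change of -0.04 in Ova cells (95% interval -0.34 to 0.27, adjusted p 0.868). In IC cells it was lower with iBET in 3 of 3 mice (-0.37, SE 0.14, adjusted p 0.0581), and there the call turned on the processing. The 2 groups overlapped, with mouse B's iBET IC library at 15.0 CPM and mouse C's DMSO IC library at 14.7 CPM. The adjusted p was 0.0310 with mouse as a block, 0.0457 in DESeq2, 0.0398 without mouse A's DMSO Ova library, 0.0336 without mouse C's DMSO IC library and 0.0389 without mouse B's iBET IC library. Arrdc3 gave -0.20 (adjusted p 0.341) and -0.31 (adjusted p 0.140). Arrdc1 gave 0.26 (adjusted p 0.362) and 0.51 (adjusted p 0.0725). Txn1 gave 0.05 (95% interval -0.17 to 0.27) and 0.24 (0.02 to 0.46, adjusted p 0.0813), and a call in IC cells was gained without mouse C's DMSO IC library (0.34, adjusted p 0.0274). In IC cells the Arrdc4 and Txnip estimates were thus of opposite sign.

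**Figure D4:**
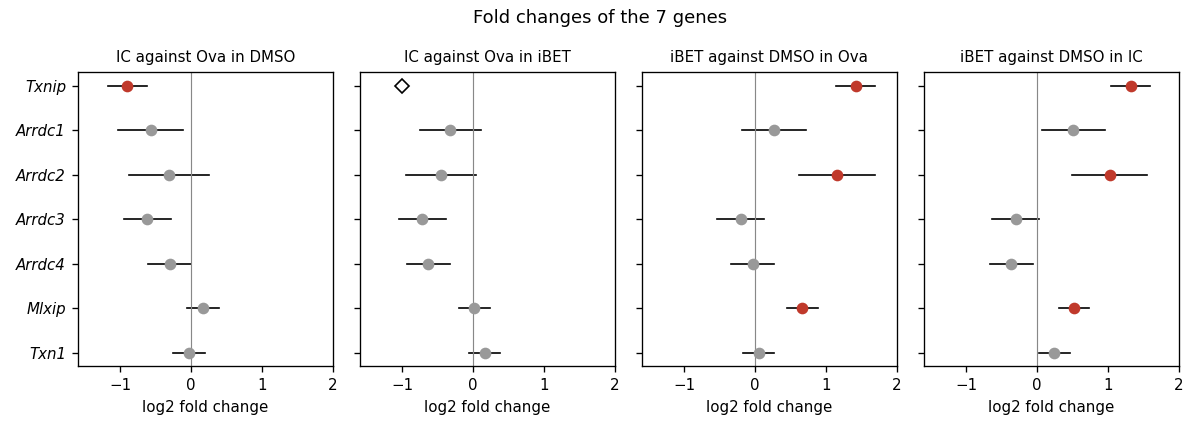
Log2 fold change of the 7 genes in 4 comparisons, with 95% intervals of the edgeR fit without mouse as a block as bars. Red points were called at an adjusted p under 0.05, grey points were not, and the open diamond is the Txnip value that chose the gene, drawn without an interval. Txnip, Arrdc2 and Mlxip are red in both iBET comparisons.

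The interaction (the response to IC under iBET less that under DMSO) was called for 0 of the 7 genes, beside 0% of all genes tested (292 at an unadjusted p under 0.05, and 4 called by DESeq2), and 0 of the 7 had an unadjusted p under 0.05 (edgeR). DESeq2 called none of the 7 either. For Txnip the 2 responses of -1.0 and -0.90 differed by -0.10, a value that its choice bears on. The difference was -0.33 for Arrdc4 (95% interval -0.76 to 0.10), -0.10 for Arrdc3 (-0.57 to 0.37) and -0.15 for Mlxip (-0.45 to 0.16). It was 0.24 for Arrdc1, 0.19 for Txn1 and -0.14 for Arrdc2. The widest interval was that of Arrdc2 (-0.89 to 0.62).

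A share and a ratio describe how the transcripts stood to each other, both per length. Txnip made up 88.1 ± 1.28% of all alpha-arrestin transcripts per kilobase in DMSO Ova cells and 84.6 ± 1.68% in DMSO IC cells. Its share was 94.7 ± 0.0537% in iBET Ova and 92.8 ± 1.12% in iBET IC cells (n = 3 each). The ratio of Txnip to Txn1, its binding partner, was 1.14, 1.39 and 1.30 in DMSO Ova cells and 0.658, 0.805 and 0.641 in DMSO IC cells. It was 3.47, 3.16 and 3.29 in iBET Ova cells and 1.42, 1.47 and 1.54 in iBET IC cells, so DMSO IC was the group in which Txn1 exceeded Txnip in every library. These are levels of RNA, and Txnip enters each with the values that chose it.

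Txnip lies at chr3:96557957-96561883 of GRCm38 (plus strand, ENSMUSG00000038393), and 606 of its 3123 exon bases are shared with Gm15441, an antisense gene on the other strand. Use of strand in the counting was not stated, so reads of the shared bases cannot be assigned to one of them. Gm15441 had 1162 counts over the 12 libraries against 73463 of Txnip, or 1.58%. Its values were 4.62, 5.52 and 8.79 CPM in DMSO Ova, 5.05, 3.74 and 2.76 in DMSO IC, 20.3, 20.5 and 12.3 in iBET Ova and 8.27, 4.26 and 11.4 in iBET IC. Gm15441 rose with iBET in Ova (log2 fold change 1.41, SE 0.36, adjusted p 0.0113) and in IC cells as well (1.03, SE 0.37, adjusted p 0.0482), and with IC it had -0.78 in DMSO (adjusted p 0.476) and -1.16 in iBET (adjusted p 0.305). Among the other genes, 267 exon bases of Mlxip are shared with the antisense gene Gm15747, not analysed here, and no exon bases of Arrdc1, Arrdc2, Arrdc3, Arrdc4 or Txn1 were shared with another annotated gene.

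Likeness to Txnip over the 12 libraries was measured by Pearson's r of log2 CPM among 9427 other genes with a mean count of at least 50, as a description, since the libraries share mice and groups. Among the 5 highest were Crot, of peroxisomal fatty acid oxidation (0.98), Fam117b (0.97), Pygb, a glycogen phosphorylase (0.97), and Crtc1, a CREB coactivator (0.97). The 3 lowest were Lpar1, a lysophosphatidic acid receptor (-0.98), Traf1, a signalling adaptor (-0.97), and Ikbkap, the Elongator subunit gene (-0.97). Leaving out the libraries of 1 mouse kept the r of these 7 at 0.95 or more in size, from 0.96 to 0.99 for Crtc1, which held both ends among the first 4, and from -0.95 for Ikbkap to -0.99 for Traf1 among the last 3, and Spearman's rho was between 0.94 and 0.99 in size. Over the 12 libraries, which span both drug arms, the members closest to Txnip were Arrdc2 (0.85) and Arrdc1 (0.82). Mlxip (0.71), Txn1 (0.37), Arrdc4 (0.20) and Arrdc3 (0.18) followed.

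For Arrdc4 and Arrdc3 the r with Txnip was higher within each drug arm than over both. Within the 6 DMSO libraries it was 0.75 for Arrdc4 and 0.80 for Arrdc3, and within the 6 iBET libraries it was 0.93 for Arrdc4 and 0.90 for Arrdc3. Each arm holds Ova and IC libraries, so an r within an arm takes in the difference with IC already given. In iBET that difference is the one that chose Txnip, so a high r there is no separate result. Mlxip had -0.44 in DMSO and -0.09 in iBET, both of the other sign than over the 12 libraries. Arrdc2, the closest over both arms, had only 0.30 in DMSO and 0.68 in iBET. Arrdc1 had 0.92 and 0.64, and Txn1 had 0.32 and -0.72. The genes most like Arrdc4 itself were Arid1a (0.88), Zfp512 (0.88) and Cyp51 (0.88), and Arrdc3 was the ninth of 9427 (0.83).

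**Figure D5:**
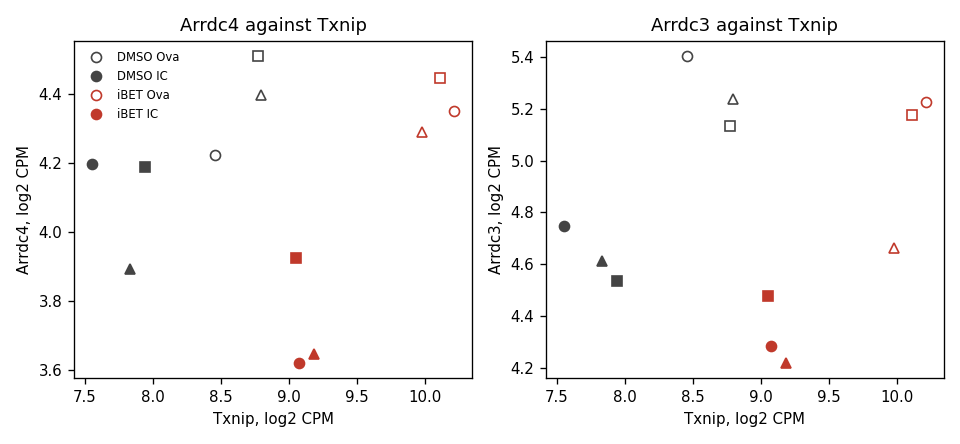
Arrdc4 (left) and Arrdc3 (right) against Txnip, in log2 CPM, 1 point per library. Grey marks DMSO and red iBET, open symbols Ova and filled symbols IC, and circles, squares and triangles mice A, B and C. In each arm the IC libraries lie below and to the left of the Ova libraries, and the iBET arm is shifted to higher Txnip.

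The machinery around Txnip was read from lists of genes, counted in each comparison. Of 17 thioredoxin system genes, 5 rose and 0 fell with iBET in Ova cells (median log2 fold change 0.15, against 0.02 over all genes tested), and 5 rose and 1 fell in IC cells (0.23 against 0.00), beside 31.3% and 34.8% of all genes called. The largest rises were in Nxn (nucleoredoxin), from 1.47 ± 0.487 to 6.92 ± 1.46 CPM in Ova cells (2.10, SE 0.25, adjusted p 7.3e-05), and in IC cells from 0.900 ± 0.125 to 6.69 ± 0.50 CPM (2.88, SE 0.26, adjusted p 6.92e-06), and in Srxn1, the sulfiredoxin that repairs peroxiredoxins, from 157 ± 22.6 to 364 ± 65.9 CPM in Ova cells (1.20, SE 0.21), and in IC cells from 188 ± 39.5 to 546 ± 118 CPM (1.54, SE 0.21). Txnrd1, the cytosolic thioredoxin reductase, rose by 0.62 (SE 0.14, adjusted p 0.00449) and 0.71 (SE 0.14, adjusted p 0.00172). The calls of Nxn and Srxn1 held in all 15 fits without a library or a mouse, and those of Txnrd1 were lost without mouse B (adjusted p 0.133 in Ova cells and 0.0733 in IC cells) and, in Ova cells, without mouse C. In IC cells the 1 that fell, Txnl1, was lost in 12 of the 15 fits and Prdx1 in 2. Txnrd3, called in Ova cells, was lost in 5, and the calls of Msrb1 held in all 15. None of the 17 was called with IC in either arm, where 2 had an unadjusted p under 0.05 in DMSO and 4 in iBET, and with the block or DESeq2 1 was called in iBET.

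Of 6 other partners and regulators of Txnip, 3 rose and 1 fell with iBET in each stimulus (medians 0.51 and 0.57), beside 31.3% of all genes called in Ova cells and 34.8% in IC cells. Foxo1 and Foxo3, whose products bind the FoxO motif, rose with iBET in Ova cells from 14.9 ± 2.71 to 33.9 ± 2.81 CPM (Foxo1, log2 fold change 1.13, SE 0.15, adjusted p 0.000124) and from 31.1 ± 1.22 to 61.4 ± 2.51 CPM (Foxo3, 0.98, SE 0.11, adjusted p 3.7e-05). In IC cells the rises were 1.03 (SE 0.14) for Foxo1 and 1.01 (SE 0.11) for Foxo3. Nlrp3, the inflammasome sensor, fell with iBET from 69.3 ± 10.6 to 16.5 ± 4.29 CPM in Ova cells (-2.08, SE 0.20, adjusted p 1.27e-05), and in IC cells from 124 ± 22.5 to 39.8 ± 5.41 CPM (-1.64, SE 0.19, adjusted p 4.34e-05), in each the opposite direction to Txnip. These 6 calls held in all 15 fits without a library or a mouse. The third to rise was Ddit4, an mTORC1 inhibitor (2.16, SE 0.46, in Ova cells and 1.31, SE 0.38, in IC cells), at no more than 2.60 CPM on average, and its call was lost without mouse C in Ova cells (adjusted p 0.0643) and, in IC cells, without any 1 mouse, mouse A's DMSO IC library or mouse C's iBET IC library. With IC in iBET Nlrp3 rose by 1.27 (SE 0.19, adjusted p 0.0118), 1 of 6, a call lost without mouse B and in the fits without its iBET Ova, without its iBET IC and without the mouse A iBET Ova library. With IC in DMSO 0 of the 6 were called by edgeR, 2 had an unadjusted p under 0.05, and 1 was called with the block and by DESeq2.

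Among 10 glucose carriers and hexokinases, 8 were tested. Slc2a3 (Glut3) fell with iBET, from 17.3 ± 0.692 to 4.93 ± 0.125 CPM in Ova cells (-1.80, SE 0.20, adjusted p 3.46e-05), and in IC cells from 17.6 ± 3.13 to 4.81 ± 1.16 CPM (-1.86, SE 0.19, adjusted p 1.95e-05). It was the 1 of 8 called in Ova cells (2 with the block), and in IC cells 1 rose and 2 fell (5 called with the block). The list medians were 0.07 and 0.08, and 31.3% and 34.8% of all genes were called. The second to fall in IC cells was Hk2, from 74.9 ± 6.12 to 45.7 ± 1.44 CPM (-0.71, SE 0.11, adjusted p 0.000378), and the 1 that rose was Slc2a1 (Glut1), the carrier Txnip is known to restrain (0.50, SE 0.16, adjusted p 0.0298), a call lost without mouse B and without the DMSO IC libraries of mice A and B or the iBET IC libraries of mice B and C, each left out singly. With IC in DMSO only Hk2 of the 8 rose (0.57, SE 0.11, adjusted p 0.0325), and 11 of the 15 fits without a library or a mouse lost the call. With IC in iBET 0 of 8 were called by edgeR, 2 had an unadjusted p under 0.05, and 1 was called with the block and by DESeq2.

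The Mondo-Mlx list of 9 genes had 6 tested, with Mlxipl, the gene of the MondoA relative ChREBP, Pklr and Gpd1 too low. With iBET in Ova cells 1 rose (Pfkfb3, 0.65, SE 0.13) and 1 fell (Klf10, -0.59, SE 0.13). In IC cells 2 rose, Pfkfb3 (0.53, SE 0.12) and Khk (0.68, SE 0.21), and 2 fell, Klf10 (-0.44, SE 0.13) and Hk2, which is on both lists. Genes linked to the glucose response thus moved in both directions, with medians of 0.17 and 0.16 and 31.3% and 34.8% of all genes called. Fits without mouse C lost the calls of Pfkfb3 and Klf10 in both stimuli (highest adjusted p 0.0671 for Pfkfb3, in Ova cells), those without mouse B lost Klf10 (0.115 in Ova cells and 0.278 in IC cells) and Khk (0.174), and mouse A decided Pfkfb3 in IC cells and Khk. The call of Khk was also lost without the DMSO IC or iBET IC library of mouse A or the iBET IC library of mouse B, and that of Klf10 in IC cells without mouse B's DMSO IC library or any 1 iBET IC library. With IC in DMSO 1 of 6 rose, Hk2, and in iBET 0 of 6 were called by edgeR, 0 at an unadjusted p under 0.05 and 0 by DESeq2.

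NEDD4-family ligases, through which alpha-arrestins act, were listed with the adaptors Ndfip1 and Ndfip2, and the list moved with iBET in both directions. Of 11 listed genes 8 were tested, Nedd4 itself not among them. In Ova cells 2 rose and 2 fell, and in IC cells 4 rose, the adaptor Ndfip1 among them, and 3 fell (medians 0.10 and 0.17), beside 31.3% and 34.8% of all genes called. Wwp1 fell from 362 ± 59.0 to 170 ± 39.1 CPM in Ova cells (-1.09, SE 0.19, adjusted p 0.001) and by 0.77 in IC cells (SE 0.19, adjusted p 0.00753). Wwp2 fell by 0.64 (SE 0.11) and 0.62 (SE 0.11), and Smurf2 rose by 0.59 (SE 0.15) and 0.81 (SE 0.14). Without mouse B the calls of Wwp1 were lost in both stimuli (adjusted p 0.0552 and 0.136) and those of Wwp2 and Smurf2 in Ova cells (0.0757 and 0.180), and Smurf2 was lost in Ova cells also without mouse C. Of the 15 fits without a library or a mouse, 13 lost Itch in IC cells, and 7 lost each of Ndfip1, Nedd4l and Smurf1 there. Smurf1 in Ova cells was lost in 6. DESeq2 called 3 of the list in Ova cells and 6 in IC cells. With IC 0 of 8 were called in either arm by edgeR, 1 had an unadjusted p under 0.05 in each, and the block and DESeq2 called none.

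Of 5 sorting partners of Arrdc1 only Hgs, an ESCRT-0 subunit, rose with iBET, by 0.32 in Ova cells (SE 0.09, adjusted p 0.0213, lost without any 1 mouse, mouse A's or C's DMSO Ova library or the iBET Ova library of mouse A) and by 0.38 in IC cells (SE 0.09, adjusted p 0.00805, lost without mouse B or C). Of 4 tested relatives with an arrestin fold, Arrb1 (beta-arrestin 1) fell with iBET in Ova cells (-0.65, SE 0.12, adjusted p 0.00147, lost without mouse B) and in IC cells (-0.33, SE 0.12, adjusted p 0.0468, lost in 12 of 15 such fits). Vps26b, a retromer subunit, rose by 0.41 and 0.39 (SE 0.09 in both), and both calls were lost without mouse B and the first also without mouse C. The medians with iBET were 0.06 and 0.07 for the sorting partners and 0.02 and 0.10 for the relatives, beside 31.3% and 34.8% of all genes called in Ova and IC cells. In neither list was a gene called with IC by edgeR, with the block or by DESeq2. At an unadjusted p under 0.05 there was 1 of the 4 relatives in DMSO and otherwise none. For the interaction 0 genes of any list were called by edgeR, with the block or by DESeq2, and 1 gene of the Mondo-Mlx list, 1 of the glucose carrier list and none elsewhere had an unadjusted p under 0.05.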

How the data were processed

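RNA from 12 libraries of BMDMs was measured. The deposited table of counts per gene symbol was made by the authors with Trim Galore, HISAT2 (mm10) and featureCounts, per the labels and methods; strand use and annotation are not given in the sources used here. The other deposited table, a normalised signal, equalled counts divided by a size factor (largest relative gap 5.22e-15), and 0 columns were left unmapped.

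The 7 members and the lists were chosen with earlier results of these data known. The edgeR 4.0.16 analysis (R 4.3.3) was first tested on simulated data. filterByExpr (minimum count 10) kept 11468 genes, and 1 quasi-likelihood model (TMM, robust, 1 term per group) gave 5 contrasts. P-values were two-sided and adjusted over all genes tested, with calls at 0.05. SE is the absolute log2 fold change over the square root of F, and intervals are 95%. CPM are TMM-normalised. Differences per mouse were taken on log2 CPM (prior count 2). The mice are separate animals. Named were the 7 members, at most 4 called genes per list and contrast with the largest changes, and genes most like Txnip and Arrdc4. Lengths, positions and overlaps came from GENCODE on GRCm38, and promoters from RefSeq.

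Libraries were paired by mouse, as the labels give. Over deviations from group means, the 18 same-mouse pairs had correlations from -0.07 to 0.54 (median 0.26), and the 36 pairs of different mice from -0.50 to 0.27 (median -0.13). Alternatives were DESeq2 1.42.0, its size factors in edgeR, 2 other filters, mouse as a block in both tools, the compared groups alone, 1 surrogate variable (sva 3.50.0), limma 3.58.1 on log2 of the deposited signal with a pseudocount of 1 or 0.5, removal of Rn45s, each library and each mouse left out, and, chosen after seeing the data, the block without mouse A's DMSO Ova library. Protein sequences were not used here. Some genes that the rules select are not reported here.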

Additional observations from a re-analysis of the deposited data

How the results depend on the processing

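Over 15 fits that left out 1 library or 1 mouse and 12 other settings, Txnip kept its direction with IC in DMSO and with iBET in both stimuli. It also did with IC in iBET, but that comparison chose the gene and the fits reuse its libraries, so this is no support. The comparisons of iBET with DMSO also reuse iBET libraries that entered the choice. In the interaction the sign of Txnip was not the same in every fit. With IC in DMSO its log2 fold change without a library or a mouse ranged from -1.02 to -0.79, the lowest and highest, and its call was lost only without mouse B or C and with the compared groups alone (-0.90, adjusted p 0.122). The fits of 1 mouse fewer have 8 libraries.

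With mouse as a replicate block, which takes up the pairing, the members called with IC numbered 2 in DMSO and 3 in iBET, in edgeR and in DESeq2, and DESeq2 without the block and 1 surrogate variable each gave the same 2 and 3, against 1 and 1 in edgeR without the block. These counts in iBET include Txnip, which that comparison chose. Over all genes, DESeq2 without the block called 268 with IC in DMSO and 103 in iBET. The edgeR fit without the block called 140 and 40. Totals for the block and for 1 surrogate variable are not given here, so their member counts cannot be set against them. The block without mouse A's DMSO Ova library gave 1 in DMSO, with Arrdc3 lost, and 3 in iBET, and the compared groups alone gave 0 in DMSO. The block gained the calls of Arrdc3 with IC in both arms and of Arrdc4 with IC in iBET and with iBET in IC, and it changed no other call of a member. Without a library or a mouse the members called with IC ranged from 0 to 2 in both arms, and with iBET in IC from 1 to 5.

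Estimates near 0 changed sign. For Txn1 with IC in DMSO the sign turned without DMSO Ova replicate 3 (0.02), without DMSO IC replicate 1 (0.042) and without mouse A (0.02), and with iBET in Ova from -0.026 to 0.15 over the leave-outs and to -0.00465 under the block without mouse A's DMSO Ova library. Mlxip with IC in iBET ranged from -0.033 to 0.089 over the leave-outs and was -0.0034 with 1 surrogate variable. Arrdc2 with IC in DMSO ranged from -0.59 to 0.19 and in the interaction from -0.69 to 0.38, Arrdc3 in the interaction from -0.26 to 0.045, Txn1 with IC in DMSO from -0.12 to 0.042 and Arrdc4 with iBET in Ova from -0.14 to 0.035. Arrdc2 had the fewest counts of the 7, with 8 in its lowest library, mouse A's DMSO Ova. Without that library its sign with IC in DMSO was kept (-0.38), and it turned without DMSO Ova replicate 2 (0.074) or mouse B (0.19). The cause of the sign changes was not tested.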
